A study of Arabidopsis thaliana with 10 samples.

Results

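The genes that flank *FLC*, the MADS-box repressor of flowering, on chromosome 5 of *Arabidopsis* were examined in mutants of 4 genotypes in which *FLC* transcripts are high. The members were all gene identifiers of the deposited tables from AT5G09900 to AT5G10400, without *FLC* itself (AT5G10140), which gave 62 genes of 32548. On the TAIR10.1 assembly, 57 of them lie beside *FLC*, 28 at lower and 29 at higher coordinates, between positions 3089278 and 3270957 of chromosome 5, and 54 of these 57 are protein-coding. The remaining 5 (AT5G09915, AT5G09925, AT5G09945, AT5G09955 and AT5G09965) are non-coding RNA genes placed elsewhere on the chromosome by the annotation. They had at most 6 reads in any library and were not treated as neighbours.

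RNA-seq was done on 10-day-old seedlings of *fld* (T-DNA line SalK_075401), *ld* (T-DNA line Salk_003039), the *efl2 efl4* double mutant (CRISPR/Cas9), the *sdg26 aprf1* double mutant (T-DNA lines Salk_013895 and a WiscDsLox insertion, the *aprf1-9* allele) and the wild type Col-0, in whose background all mutants were made. Plants grew at 23°C with 16 h of light and 8 h of dark, and each genotype had 2 libraries. The sample titles spell the CRISPR mutant elf2/4 and the protocol efl2/4. Libraries held 20455413 to 20768023 reads on genes. The mutated genes were lower than in Col-0 in both libraries of their own mutant for all 6 genes (*FLD*, *LD*, *EFL2*, *EFL4*, *SDG26* and *APRF1*), with log_2_FC of −3.43 for *FLD* to −0.38 for *EFL4*. The 4 comparisons share the same 2 Col-0 libraries, so they are not independent of each other. The study calls the replicates independent and the labels say no more, so *p* values measure the spread between these libraries, which may be technical.

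*FLC* delays flowering by repressing genes that promote it, and the autonomous pathway, to which *FLD* and *LD* belong, keeps it low. Prolonged cold also silences it, through Polycomb histone marks that spread over the gene. The gene just upstream is called *UPSTREAM OF FLC* (*UFC*, AT5G10150, a DUF966 protein), and both it and the gene just downstream, AT5G10130 (a pollen Ole e 1 allergen and extensin family protein), are known to be repressed by cold together with *FLC*. The comparison asked whether the higher *FLC* level of these mutants, without cold, came with changed transcript levels of the genes around it.

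The 4 genes that the results turn on are *FLC*, its neighbours on either side, and *RING1* (AT5G10380), the most distant gene with a large difference. The 250 bases before the annotated start of each are shown 5′ to 3′ on the strand of the gene, from the RefSeq annotation of TAIR10.1, to let the regions be compared. All are on chromosome 5, and capitals mark matches, on either strand, to the RY element TGCATG, the telobox AAACCCTA, the G-box CACGTG or the W-box core TTGAC.
*FLC* (minus strand, chr5:3179449-3179698): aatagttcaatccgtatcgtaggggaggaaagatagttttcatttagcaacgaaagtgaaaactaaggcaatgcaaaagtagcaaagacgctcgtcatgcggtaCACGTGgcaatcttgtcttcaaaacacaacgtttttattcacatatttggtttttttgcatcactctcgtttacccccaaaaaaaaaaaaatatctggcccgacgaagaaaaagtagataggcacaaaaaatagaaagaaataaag
*UFC* (minus strand, chr5:3184111-3184360): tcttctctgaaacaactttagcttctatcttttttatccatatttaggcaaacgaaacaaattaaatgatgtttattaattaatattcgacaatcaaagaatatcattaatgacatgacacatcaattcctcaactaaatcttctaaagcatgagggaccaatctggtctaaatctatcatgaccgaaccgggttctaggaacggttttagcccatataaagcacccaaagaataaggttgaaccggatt
AT5G10130 (minus strand, chr5:3172702-3172951): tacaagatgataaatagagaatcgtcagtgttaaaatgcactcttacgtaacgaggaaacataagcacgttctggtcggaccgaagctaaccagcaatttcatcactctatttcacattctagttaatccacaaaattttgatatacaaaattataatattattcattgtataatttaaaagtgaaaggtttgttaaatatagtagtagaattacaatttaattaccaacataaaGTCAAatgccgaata
*RING1* (plus strand, chr5:3267385-3267634): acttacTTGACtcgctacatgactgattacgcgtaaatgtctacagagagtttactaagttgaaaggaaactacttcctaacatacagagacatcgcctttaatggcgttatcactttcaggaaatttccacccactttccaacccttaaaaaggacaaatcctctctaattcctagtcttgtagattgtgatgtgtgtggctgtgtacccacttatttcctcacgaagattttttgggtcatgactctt

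The *FLC* window held 1 G-box, those of AT5G10130 and *RING1* held 1 W-box core each, and the *UFC* window held none of the 4 motifs. Among the 250-base windows of 27443 protein-coding genes, 6.49% held the G-box, 44.9% the W-box core, 8.43% the RY element and 4.49% the telobox. Of the 54 protein-coding members, 8 held the G-box, 24 the W-box core, 7 the RY element and 1 the telobox. A match is a description of letters, not a binding site.

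Levels are given below as scaled reads, the whole reads recovered from the deposited normalized reads and put on one scale over the 10 libraries with the TMM method. Each log_2_FC is the mutant over Col-0 within the deposited table of that mutant, on log_2_(normalized reads + 1). For genes with few reads this understates the fold. In seedlings, fewer cells that transcribe a gene and less RNA per cell cannot be told apart. *FLC* had 622 and 609 scaled reads in *fld*, 493 and 522 in *ld*, 370.5 and 388 in *efl2 efl4*, 166 and 143 in *sdg26 aprf1*, against 4.00 and 3.95 in Col-0. In Col-0 it was thus a nearly silent gene between expressed ones. Per kb of annotated exon, Col-0 had 3.37 scaled reads of *FLC*, against 186 of *UFC* and 191 of AT5G10130.

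*UFC* was the neighbour with the largest positive difference in *fld*, *ld* and *sdg26 aprf1*. It lies 2.49 kb upstream of *FLC* and is transcribed in the same direction (chromosome 5, 3181938 to 3184110, 4 exons). *UFC* had 489 and 500.4 scaled reads in *fld*, 494 and 566.5 in *ld*, 452 and 404 in *efl2 efl4*, 543 and 488 in *sdg26 aprf1*, against 310 and 387 in Col-0. All 8 mutant libraries lay above both Col-0 libraries, whereas the other 4 tested genes among the 3 nearest on each side did not separate in this way. Means were 495 ± 8.03 in *fld*, 530.4 ± 51.0 in *ld*, 428 ± 34.1 in *efl2 efl4*, 515 ± 38.9 in *sdg26 aprf1* and 348.5 ± 54.7 in Col-0 (SD, n = 2 each).

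The difference of *UFC* was 1.42-fold for *fld* (log_2_FC 0.51, SE 0.14), 1.52-fold for *ld* (0.61, SE 0.16), 1.23-fold for *efl2 efl4* (0.30, SE 0.15) and 1.48-fold for *sdg26 aprf1* (0.57, SE 0.15). None of these passed after adjustment over all genes, with limma adjusted *p* values of 0.91 to 1.0 over the 4 mutants. Over all tested genes, the same replicate numbers deviated together across genotypes. *UFC* itself had no shared order, its first library being the higher in 2 genotypes and the second in 3. A block for the replicate number brought the adjusted *p* of limma to 0.0186 for *fld* and 0.00536 for *ld*. It was 0.284 for *efl2 efl4* and 0.374 for *sdg26 aprf1*. With that block, which leaves 1 residual degree of freedom per gene, limma thus called *UFC* higher in *fld* and *ld*. In the average of the 4 mutants against Col-0, the edgeR quasi-likelihood test gave a log_2_FC of 0.49 with an adjusted *p* of 0.2, or 0.0309 with the block. Leaving out 1 Col-0 library moved the average log_2_FC between 0.34 (without Col-0 replicate 1) and 0.66 (without Col-0 replicate 2), because these 2 libraries differ. In *efl2 efl4* alone, the *UFC* log_2_FC of 0.30 became 0.14 without Col-0 replicate 1 and 0.46 without Col-0 replicate 2.

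The means of *UFC* did not follow the order of the *FLC* levels, but the mutants were not shown to differ in *UFC*. The order of the *FLC* levels was *fld*, *ld*, *efl2 efl4* and *sdg26 aprf1*, and the libraries of neighbouring genotypes in that order did not overlap. The order of the *UFC* means was *ld*, *sdg26 aprf1*, *fld* and *efl2 efl4*, with overlapping libraries of *ld*, *sdg26 aprf1* and *fld*. So *sdg26 aprf1*, with the lowest *FLC* of the 4 mutants (log_2_FC 4.96, against 6.95 in *fld*), had a *UFC* log_2_FC of 0.57, against 0.51 in *fld*. The test of a difference among the 4 mutants gave *UFC* an edgeR adjusted *p* of 1.0, or 0.384 with the block, which does not show that the mutants were alike.

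On the other side of *FLC*, AT5G10130 lies 0.68 kb beyond the 3′ end of *FLC* and is transcribed in the same direction (chromosome 5, 3171266 to 3172701). It had 251.5 and 154 scaled reads in *fld*, 206 and 223 in *ld*, 160 and 172 in *efl2 efl4*, 216 and 206 in *sdg26 aprf1*, against 209 and 194 in Col-0. The libraries of *fld*, which stand far apart, lie on both sides of Col-0, those of *ld* and *sdg26 aprf1* overlap Col-0, and only those of *efl2 efl4* lie below it. The log_2_FC was −0.03 for *fld*, 0.09 for *ld*, −0.28 for *efl2 efl4* and 0.07 for *sdg26 aprf1*. The 95% intervals of these were −0.71 to 0.64, −0.25 to 0.42, −0.63 to 0.07 and −0.26 to 0.40, so none of them reached a doubling or a halving.

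The next genes showed small differences too. AT5G10120, of the ethylene insensitive 3 family, 2.12 kb away, had 0 to 4.98 scaled reads in the mutant libraries and 1.0 and 2.96 in Col-0, too few to be tested. AT5G10110 (annotated as a DNA-directed RNA polymerase subunit beta, 5.04 kb away) had 221 and 190 in *fld*, 231 and 202 in *ld*, 232 and 260 in *efl2 efl4*, 248 and 209 in *sdg26 aprf1*, against 219 and 233 in Col-0. The libraries of every mutant overlapped those of Col-0 for AT5G10110. Upstream of *UFC*, AT5G10160 (a thioesterase superfamily protein, 6.29 kb away) had 648 and 697.5 in *fld*, 699 and 751 in *ld*, 715 and 675 in *efl2 efl4*, 682 and 655.5 in *sdg26 aprf1*, against 761 and 706 in Col-0. *MIPS3* (AT5G10170, an enzyme that makes myo-inositol phosphate, 7.83 kb away) had 838 and 672.5 in *fld*, 800.1 and 792 in *ld*, 742 and 784 in *efl2 efl4*, 681 and 612 in *sdg26 aprf1*, against 623 and 718 in Col-0. Of the members at 6.29 and 7.83 kb, AT5G10160 was below both Col-0 libraries in 6 of 8 mutant libraries and *MIPS3* above both in 5, and their exons overlap each other. Their log_2_FC lay between −0.13 and −0.02 and between −0.05 and 0.25.

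**Figure D1:**
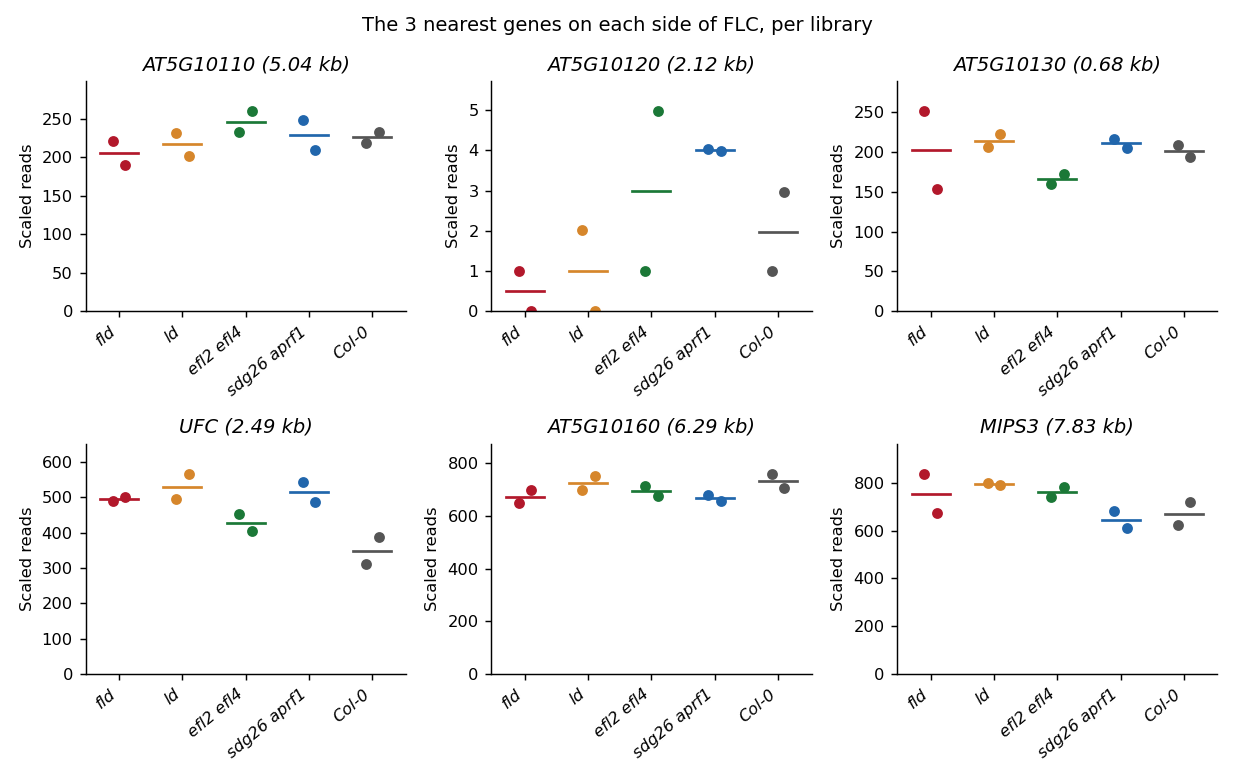
Scaled reads (linear axes from 0) of the 3 nearest genes on each side of *FLC* in each library, with 4 mutants left of Col-0, points for the 2 libraries and bars for their mean; the distance from *FLC* is in each title. *UFC* is the gene whose 8 mutant points (404 to 566.5) all lie above its 2 Col-0 points (310 and 387).

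Over the whole window, no member met the thresholds of the study, a log_2_FC of 1 or more in size and a *P* under 0.01 before adjustment. This count was 0 of 45 tested members for *fld* and for *ld* and 0 of 44 for *efl2 efl4* and for *sdg26 aprf1*, genes being tested where their mean reached 10 normalized reads. Over all tested genes the shares that met them were 0.394% for *fld*, 0.504% for *ld*, 0.434% for *efl2 efl4* and 0.498% for *sdg26 aprf1*, so among about 45 genes a count of 0 is near the background. At an unadjusted *P* under 0.05 in limma, 4 members passed for *fld*, 2 for *ld*, 1 for *efl2 efl4* and 2 for *sdg26 aprf1*, against 3.79%, 4.26%, 4.69% and 4.56% of all genes. The edgeR quasi-likelihood test, the edgeR exact test and DESeq2 also gave 0 members at the thresholds of the study in every mutant. With an adjusted *p* under 0.05, limma called 0 members, and 0.00997% of all genes for *fld*, 0.00499% for *ld*, 0.00499% for *efl2 efl4* and 0.0% for *sdg26 aprf1*.

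With the replicate block, limma called *UFC* and *RING1* in *fld* (2.25% of all genes passed) and the same 2 genes in *ld* (3.38%), and 0 members in *efl2 efl4* (2.86%) and in *sdg26 aprf1* (0.0399%). In the average of the 4 mutants, edgeR called 0 members (0.175% of all genes), or *UFC* and *RING1* with the block (1.97%). For a difference among the 4 mutants it called 0 members (0.165%), or *RING1* with the block (2.7%). At an unadjusted *P* under 0.05, 4 members passed in the average (6.64% of all genes) and 4 in the difference (6.13%).

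For most members the interval of the difference left out a doubling. The share of all tested genes for which this held is not given here, so it is not read as a trait of the members. In *fld*, 42 of 45 members had a 95% interval whose upper limit lay under a log_2_FC of 1, a doubling, and this held for 40 of 45 in *ld*, 42 of 44 in *efl2 efl4* and 42 of 44 in *sdg26 aprf1*. The lower limit lay above −1, a halving, in 43 members for *fld*, 40 for *ld*, 40 for *efl2 efl4* and 42 for *sdg26 aprf1*, and in *ld* 36 of 45 left out both. Those that reached a halving in *ld* include *RING1* (lower limit −1.07). The interval of *TPPI* (AT5G10100, trehalose-6-phosphate phosphatase I, 11.67 kb away) reached a doubling in all 4 mutants, that of the non-coding AT5G10278 in *fld*, *ld* and *efl2 efl4*, that of *MEF7* (AT5G09950) in *ld* and *sdg26 aprf1*, and those of *PROPEP5* in *fld* and of *PROPEP4* and *UFC* (upper limit 1.02) in *ld*. Most of these intervals did not reach that far in the fit with the replicate block. With it, limma's interval reached a doubling for AT5G10278 in *ld* and *MEF7* in *sdg26 aprf1*, and the upper limit of *UFC* in *ld* was 0.79. It reached a halving for *DOT3* in *fld* and *efl2 efl4*, AT5G09976 in *ld* and *PEP7* in *efl2 efl4*, and the lower limit of *RING1* in *ld* was −0.99. In *TPPI* the replicates of a genotype differed: it had 117 and 63.0 scaled reads in *fld*, 110.0 and 63.2 in *ld*, 106 and 65.7 in *efl2 efl4*, 92.6 and 61.6 in *sdg26 aprf1*, against 125 and 51.4 in Col-0. The first library of each genotype was the higher one, as it also was in all 5 genotypes for AT5G10080. A same order of the replicates in all 5 genotypes, in either direction, was seen for 12 of 44 members (27.3%) and for 36.3% of 20057 tested genes.

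The median difference was highest among members up to 20 kb from *FLC*, by small amounts. Among members up to 20 kb away (9 of 11 tested), the median log_2_FC was 0.099 for *fld*, 0.053 for *ld*, 0.115 for *efl2 efl4* and 0.009 for *sdg26 aprf1*. From 20 to 50 kb (18 of 21 tested), the medians were −0.039, 0.006, −0.032 and −0.023 in the same order of mutants. Beyond 50 kb (18 of 25 tested in *fld* and *ld*, 17 in the others), they were −0.034, −0.07, −0.028 and −0.048. For all members beside *FLC* the medians were −0.026, −0.02, −0.021 and −0.027, and for all tested genes 0.0, 0.001, −0.002 and −0.002. The median size of the change, without its sign, was 0.134 up to 20 kb for *fld* against 0.091 for all tested genes, 0.069 against 0.099 for *ld*, 0.185 against 0.109 for *efl2 efl4* and 0.085 against 0.102 for *sdg26 aprf1*. The signed median was thus above 0 and the highest of the 3 bins up to 20 kb in all 4 mutants, whereas the size exceeded that of all tested genes there in *fld* and *efl2 efl4* and not in *ld* and *sdg26 aprf1*. These bins hold few genes, and the members of a bin share libraries.

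Across members, Spearman's correlation of the signed log_2_FC with distance was −0.17 for *fld* and −0.29 for *ld* (45 members each), and −0.23 for *efl2 efl4* and −0.23 for *sdg26 aprf1* (44 each), the nearer genes having the higher values in all 4 mutants. It is given as a description because the points share libraries and the comparisons share Col-0. For the size of log_2_FC, the correlation with distance was −0.23 for *fld*, 0.0 for *ld*, −0.22 for *efl2 efl4* and 0.12 for *sdg26 aprf1*. Members at |log_2_FC| of 0.5 or more were 4 for *fld*, 2 for *ld*, 1 for *efl2 efl4* and 1 for *sdg26 aprf1*, or 8.89%, 4.44%, 2.27% and 2.27% of the tested members, against 5.25%, 6.0%, 6.54% and 6.88% of all tested genes. All of them lie on the *UFC* side of *FLC*, which holds 25 of the 45 members tested in *fld* and *ld*. They are *UFC*, *DOT3*, *MES5* and *RING1*. Of 44 members, 25 stayed within 0.25 in every mutant, and the share of all tested genes that did so is not given here.

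**Figure D2:**
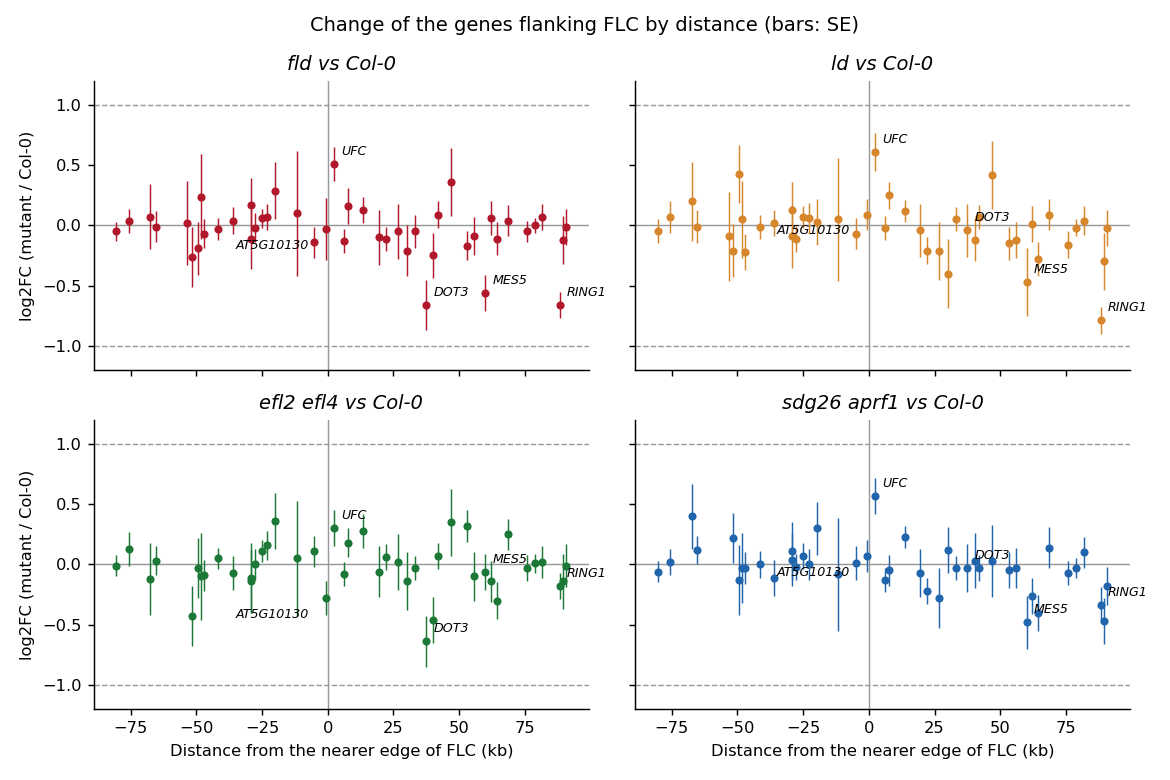
log_2_FC of each tested member (mutant over Col-0, vertical axis, bars are SE) against its distance in kb from the nearer edge of *FLC* (lower coordinates to the left), 1 panel per mutant; dashed lines mark a log_2_FC of 1 and −1, and *FLC* itself (4.96 to 6.95) is outside the axis. No point lies beyond a dashed line, and the points farthest from 0 are *UFC* at 2.49 kb and *DOT3*, *MES5* and *RING1* at 37.43, 60.01 and 88.19 kb.

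**Figure D3:**
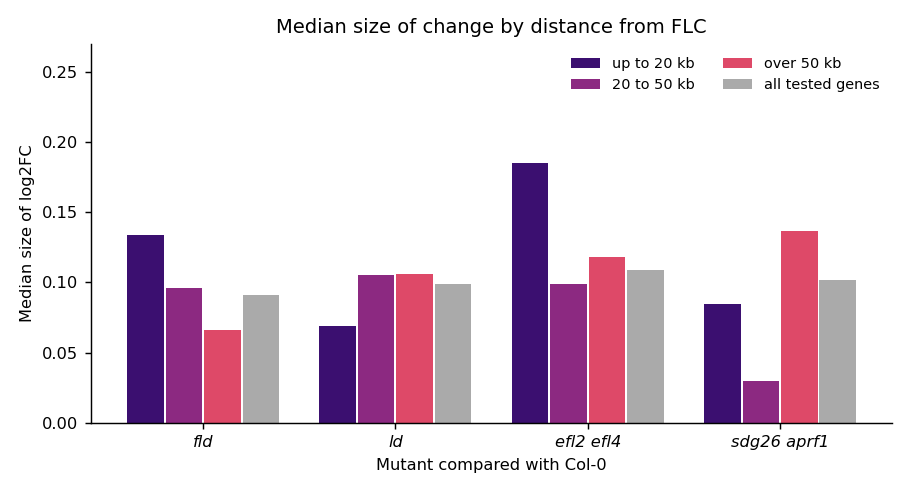
Median size of log_2_FC (vertical axis, from 0) of the members up to 20 kb, 20 to 50 kb and over 50 kb from *FLC*, and of all tested genes, for each of the 4 mutants against Col-0. In *fld* and *efl2 efl4* the bar for up to 20 kb is the highest (0.134 and 0.185), and in *ld* it is the lowest (0.069).

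*RING1*, a RING-type E3 ubiquitin ligase gene (chromosome 5, 3267635 to 3268813, plus strand), is 88.19 kb from *FLC* and had the largest negative difference in *fld* and *ld*. It had 274 and 301 scaled reads in *fld*, 260.3 and 269 in *ld*, 389 and 420 in *efl2 efl4*, 320.1 and 405 in *sdg26 aprf1*, against 469 and 443 in Col-0. All 8 mutant libraries lay below both Col-0 libraries, with *fld* and *ld* lower than *efl2 efl4* and *sdg26 aprf1*. The log_2_FC was −0.66 (SE 0.11) for *fld*, −0.79 (SE 0.11) for *ld*, −0.18 (SE 0.11) for *efl2 efl4* and −0.34 (SE 0.15) for *sdg26 aprf1*. The value for *sdg26 aprf1* was −0.51 without *sdg26 aprf1* replicate 2 and −0.17 without *sdg26 aprf1* replicate 1. The limma adjusted *p* was 0.815 in *fld* and 0.637 in *ld*, or 0.00455 and 0.0024 with the block. With the block, limma thus called *RING1* lower in *fld* and *ld*, in a fit with 1 residual degree of freedom per gene. Its replicates shared no order over the genotypes, the first library being higher in Col-0 and the second in the 4 mutants. In the average of the 4 mutants its edgeR log_2_FC was −0.49, with an adjusted *p* of 0.169, or 0.0135 with the block. For a difference among the 4 mutants, edgeR returned an adjusted *p* of 0.363, or 0.0283 with the block. Without a block, the edgeR exact test called *RING1* in *fld* (adjusted *p* = 0.0385) and *ld* (0.00457), and DESeq2 in *ld* (0.0361). The edgeR quasi-likelihood test did not call it (adjusted *p* of 0.773 in *fld* and 0.61 in *ld*). The shares of all genes called by the exact test and DESeq2 are not given here, so these calls are not read as a result about *RING1*.

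Among 20057 tested genes, 3.02% had all 8 mutant libraries above both Col-0 libraries and 2.7% had all 8 below. Of the 44 members, *UFC* and the sulfate transporter gene *SULTR2;1* (AT5G10180) were above, and *RING1* and AT5G10320 (annotated as ATP synthase subunit B) were below. *SULTR2;1* and AT5G10320 are named for this count, after their values were seen. *SULTR2;1* had 1411 to 1919 scaled reads in the mutant libraries and 1374 and 1403 in Col-0, and AT5G10320 had 90.4 to 118 in the mutant libraries and 125 and 121.5 in Col-0.

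*DOT3* (AT5G10250, an NPH3-family gene known for leaf vein patterning, 37.43 kb away) had its lowest values in *fld* and *efl2 efl4*. It had 36.8 and 43.0 scaled reads in *fld* and 38.8 and 41.8 in *efl2 efl4*, 55.5 and 68.3 in *ld* and 65.4 and 58.6 in *sdg26 aprf1*, against 57.0 and 70.1 in Col-0. The libraries of *fld* and *efl2 efl4* lay below both Col-0 libraries, whereas those of *ld* and *sdg26 aprf1* overlapped them. The log_2_FC was −0.66 for *fld*, −0.04 for *ld*, −0.64 for *efl2 efl4* and −0.03 for *sdg26 aprf1*. The edgeR test of a difference among the 4 mutants gave an unadjusted *P* of 0.0137 and an adjusted *p* of 0.562, or 0.129 with the block, so the mutants were not shown to differ.

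*MES5* (AT5G10300, methyl esterase 5, also known as a hydroxynitrile lyase, 60.01 kb away) had 76.5 and 81.1 scaled reads in *fld*, 64.6 and 108 in *ld*, 111.5 and 112 in *efl2 efl4*, 69.5 and 98.3 in *sdg26 aprf1*, against 110 and 122.5 in Col-0. The libraries of *fld*, *ld* and *sdg26 aprf1* lay below both Col-0 libraries, with a wide gap between the replicates of *ld* and of *sdg26 aprf1*. The log_2_FC was −0.56 for *fld*, −0.47 for *ld*, −0.06 for *efl2 efl4* and −0.48 for *sdg26 aprf1*, and the limma adjusted *p* was 1.0 in *fld*, or 0.113 with the block. AT5G10080, an aspartyl protease family gene 19.89 kb away, had the largest positive difference in *efl2 efl4*, where its log_2_FC was 0.36 (SE 0.23), or 0.13 without *efl2 efl4* replicate 1 and 0.59 without *efl2 efl4* replicate 2. It had 257 and 181 scaled reads in *fld*, 195 and 167 in *ld*, 268 and 194 in *efl2 efl4*, 253 and 189 in *sdg26 aprf1*, against 204 and 153 in Col-0. The libraries of every mutant overlapped those of Col-0.

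**Figure D4:**
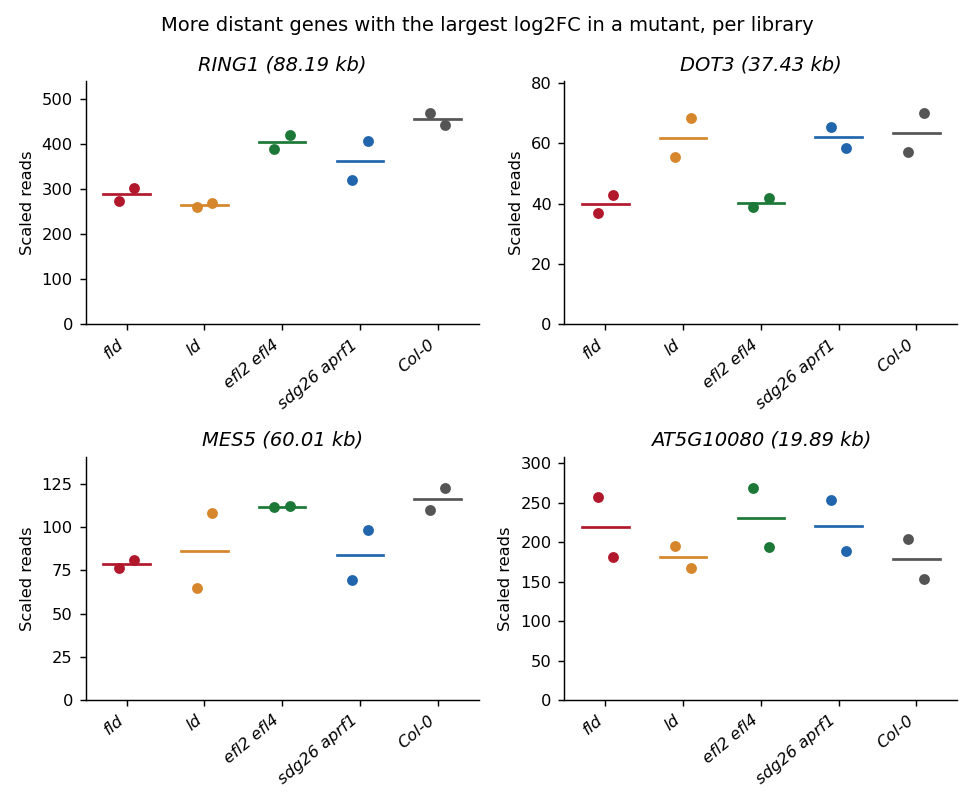
Scaled reads (linear axes from 0) of *RING1*, *DOT3*, *MES5* and AT5G10080 in each library, with the 4 mutants left of Col-0, points for the 2 libraries and bars for their mean; the distance from *FLC* is in each title. *RING1* is lowest in *fld* (274 and 301) and *ld* (260.3 and 269), and *DOT3* in *fld* (36.8 and 43.0) and *efl2 efl4* (38.8 and 41.8).

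The levels of the members spanned a wide range, and the highest differed little. The ribosomal protein gene *EMB3010* (AT5G10360, RPS6B, a protein of the small ribosomal subunit) had 7197 and 7337 scaled reads in *fld*, 7200 and 7175 in *ld*, 7496 and 7184 in *efl2 efl4*, 7147 and 7131 in *sdg26 aprf1*, against 7151 and 7386 in Col-0. Its log_2_FC lay between −0.03 and 0.01. The lowest tested member was AT5G09976, left uncharacterized by the annotation, with 10.9 and 11.01 in *fld*, 9.08 and 11.2 in *ld*, 7.97 and 4.98 in *efl2 efl4*, 9.06 and 7.95 in *sdg26 aprf1*, against 9.00 and 12.8 in Col-0, and it was tested only in *fld* and *ld*. Per kb of annotated exon in Col-0, *EMB3010* had 6097 scaled reads, *RING1* 386.5, *UFC* 186 and *DOT3* 30.5.

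By role, the 6 lists chosen for the window held no member past the thresholds of the study in any mutant. The elicitor peptide precursor genes, which encode signals of the defence response, are *PEP7*, *PROPEP4* and *PROPEP5*, listed together with AT5G09976. Their medians of log_2_FC were −0.08 for *fld*, −0.02 for *ld*, −0.1 for *efl2 efl4* and −0.03 for *sdg26 aprf1*. Their 4 relatives outside the window (*PROPEP1*, *PROPEP2*, *PROPEP3* and *PROPEP6*) had medians between −0.16 and 0.06. Of the 2 annexin genes, which encode calcium-dependent membrane-binding proteins, *ANNAT7* was tested (log_2_FC −0.4 to 0.12) and *ANN6* had at most 0.995 scaled reads, and the 4 tested of 6 annexin relatives had medians of 0.02 to 0.18.

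The genes AT5G10390 and AT5G10400 encode histone H3.1, which is put into chromatin during replication. AT5G10390 had 235 and 192 scaled reads in *fld*, 221 and 160 in *ld*, 246 and 178 in *efl2 efl4*, 164 and 168 in *sdg26 aprf1*, against 269 and 198 in Col-0. Both libraries of *sdg26 aprf1* lay below Col-0 (log_2_FC −0.47), and AT5G10400 had −0.18 there. The medians of the 3 H3.1 relatives lay between −0.07 and 0.06. In the list of transcription and RNA genes, *NRPB4* (a subunit of RNA polymerase II), *TGA4* (a bZIP transcription factor), *CDKC;1* (a kinase), *MYB92* and AT5G10350 (an RNA-binding protein) were tested, with medians between −0.03 and 0.07 and values from −0.17 to 0.32. *TGA1*, the relative of *TGA4*, had −0.11 to 0.06.

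In the list of metabolism and transport, AT5G10160, *MIPS3*, *SULTR2;1*, *TPPI*, the asparagine synthetase *ASN3* and the histidine synthesis gene *HPA1* had medians between −0.04 and 0.12. *HPA1* shares 50-base stretches with another locus, with 35.7% of its windows unique, so its reads are uncertain. The asparagine synthetase genes outside the window had log_2_FC of 0.51, 0.37, 0.23 and 0.32 for *ASN1* and 0.40, 0.31, 0.22 and 0.39 for *ASN2* in *fld*, *ld*, *efl2 efl4* and *sdg26 aprf1*, against −0.05 to 0.05 for *ASN3*. The unadjusted limma *P* was 0.0105 for *ASN1* in *fld* and 0.0538 to 0.486 in the other comparisons of *ASN1* and *ASN2*. The 4 other DUF966 genes, relatives of *UFC*, had log_2_FC of −0.18 to 0.18 in the 3 tested, and none had an unadjusted *P* under 0.05, whereas *UFC* had 0.30 to 0.61.

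As a second region to set beside this one, 61 genes around *MAF2* to *MAF5*, the *FLC* homologs at the other end of the chromosome, were read in the same way. They include *PROPEP1*, *PROPEP2*, *PROPEP3*, *ASN2*, *ANNAT2* and *TGA1*, which are also relatives in the lists above, so these comparisons share genes. Of the 61 genes, 49 were tested in *fld* and 48 in each other mutant, and 0 met the thresholds. Their median size of log_2_FC was 0.105, 0.146, 0.106 and 0.122 in *fld*, *ld*, *efl2 efl4* and *sdg26 aprf1*, against 0.099, 0.089, 0.112 and 0.079 for the members beside *FLC*. In the same order, log_2_FC around *MAF2* to *MAF5* ran from −0.43 to 0.77, −0.61 to 0.78, −0.32 to 1.09 and −0.34 to 1.17. For the members beside *FLC* it ran from −0.66 to 0.51, −0.79 to 0.61, −0.64 to 0.36 and −0.48 to 0.57.

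Of the 57 members, 44 were tested in every mutant, 1 in some and 12 in none, and 3 of these 12 had no read in any library. Among the untested, *CYP78A7* had the highest mean, 7.0 scaled reads. Exons of 19 members overlap another annotated gene and whether strand was used in counting is not given in the sources used here, so reads of overlapping genes may be mixed for them. The 5 genes *UFC*, AT5G10130, *RING1*, *DOT3* and *MES5* have no such overlap, and neither do 29 of the 44 tested members. A further 11 non-coding genes annotated in the window had means under 10 scaled reads. One of them, the long non-coding RNA gene AT5G01675, overlaps *FLC* and had 1 to 9 recovered reads in the mutant libraries and 0 and 1 in Col-0. Its exons overlap those of *FLC*, so these reads may be mixed with those of *FLC*.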

How the data were processed

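Libraries were sequenced by the authors as single-ended reads (50 bases). After HISAT2 alignment to TAIR10 and featureCounts counting on exons, the authors deposited normalized reads from edgeR, a signal per gene in 4 tables, 1 per mutant, each with the same 2 Col-0 libraries. Whole reads were recovered by dividing each library by the size of 1 read (98.931% to 100% of values above 0.5 within 0.1 of a whole number). The whole reads of Col-0 were the same in the 4 tables. All 32548 identifiers matched the RefSeq annotation of TAIR10.1, and distances are between the nearest gene edges.

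Each mutant was tested in its own table with limma (3.58.1, trend) after adding 1 to the normalized reads and taking log_2_. Genes entered where their mean reached 10, and adjusted *p* values are Benjamini-Hochberg over all tested genes. The average of the mutants and the difference among them were tested on recovered reads of all 10 libraries with the edgeR (4.0.16) quasi-likelihood test. All tests are two-sided. An exact permutation test of 2 libraries against 2 cannot give a *p* below 0.333. DESeq2 (1.42.0), the edgeR exact test, other pseudocounts and filters, upper-quartile scaling, the replicate block and leaving out libraries were alternatives. At the thresholds of the study, the edgeR quasi-likelihood test on recovered reads called 84 genes of all tested for *fld*, 104 for *ld*, 91 for *efl2 efl4* and 106 for *sdg26 aprf1*. The paper reports more genes at these thresholds in each mutant, from its own edgeR run, so the counts and shares here are not those of the study. The tests were checked on simulated data. R 4.3.3 and Python 3.11.15 were used.

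The differences between replicates 1 and 2 correlated between genotypes with *r* of 0.371 to 0.611 over 20050 genes, above 0.1 in all 10 pairs of genotypes. The main tests did not pair the libraries, and a block for the replicate number was run as an alternative. Values given without mention of the block, SE and intervals included, are from the unpaired fits. The labels do not state a shared batch. With the block, each table leaves 1 residual degree of freedom per gene.

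Values per library are named for the 3 members nearest *FLC* on each side, those called by the tests, the largest positive and negative difference in each mutant, and the highest and lowest tested member. The members and lists were chosen with earlier results of these data known. A count of 0 allows up to 3 reads, for counting error only.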

Additional observations from a re-analysis of the deposited data

Results flagged for a closer look

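For 4 of 44 members, both libraries of 1 mutant lay above both Col-0 libraries and both libraries of another mutant lay below them. The share of all tested genes with such a pattern is not given here, so the count is not read as a trait of the members. *PEP7* was above in *sdg26 aprf1* and below in *ld* and *efl2 efl4*, with log_2_FC 0.65 apart at most. *PROPEP4* was above in *ld* and below in *fld*, 0.62 apart. *ANNAT7* was above in *sdg26 aprf1* and below in *fld* and *ld*, 0.52 apart. *MYB92* was above in *efl2 efl4* and below in *fld* and *ld*, 0.49 apart. The edgeR test of a difference among the 4 mutants gave unadjusted *P* values of 0.0937 for *PEP7*, 0.122 for *PROPEP4*, 0.358 for *ANNAT7* and 0.0126 for *MYB92*, with adjusted *p* values of 0.546 for *MYB92* and 0.949 or more for the others. None was thus shown to differ between the mutants.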

How the results depend on the processing

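The count of members past the thresholds of the study was 0 in each mutant under all but 2 of the alternatives run, leaving out each library in turn included. Without a filter on low values it was 1 in *ld* (*ABCF2*, with 2 recovered reads in each *ld* library and 0 in Col-0). With |log_2_FC| of at least 0.5 and *P* under 0.05 it was 4 for *fld*, 2 for *ld*, 1 for *efl2 efl4* and 1 for *sdg26 aprf1*. The share of all tested genes that met both of these is not given here, so the counts are not read as a trait of the members. The replicate block gave 2 members with a limma adjusted *p* under 0.05 in *fld* and 2 in *ld* (counted this way after seeing the data), 2 in the average of the 4 mutants and 1 in the difference among them, and it changed no other call. The median log_2_FC of the members stayed between −0.055 and 0.057 over 40 alternatives. Of 585 values of the 12 named members under alternatives, 563 lay within 1 SE of the main value, and the other 22 came from leaving out 1 library. Among these 22, *MES5* in *ld* had −0.84 without *ld* replicate 2 and −0.1 without *ld* replicate 1. Restricting to members without exon overlap, added after seeing the data, left the counts at 0. Because their mean was under 10 normalized reads, 12 of 57 members were not tested in any mutant, and 2 of these are tRNA genes in which 0.0% of 50-base windows are unique in the genome.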
